A study of Gallus gallus with 13 samples.

Results

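Indian hedgehog and the hedgehog-binding proteins HHIP and GAS1 were followed in 5 RNA libraries from chicken limb bud cultures, as 3 of the 16737 Ensembl genes in the deposited expression table. Each gene was found by its symbol or its UniProt chicken entry and represented by its transcript of highest mean level. IHH (ENSGALG00000011347) had a pair of transcripts, and HHIP (ENSGALG00000009948) and GAS1 (ENSGALG00000017658) had a single one each. The cultures were embryonic limb bud mesenchyme of Hamburger-Hamilton stage 24, plated as dense micromass droplets in which such cells form cartilage, and harvested on day 9. All received an RCASBP(A) retrovirus: FLAG-tagged mouse Hoxd13 as wild type (HOXD13 wt) or as the mutants Q317K and Q317R, FLAG-tagged chicken PITX1, or no insert (empty vector). HOXD13 is a homeodomain factor of the distal limb and PITX1 one of the hindlimb, and the series asks how limb malformation mutations of HOXD13 shift its action. Each group had 1 library, so no difference could be set against a spread between replicates, no p-value was computed, and "higher" and "lower" describe these libraries only. Virus was added to the whole cell suspension, and the RNA came from all cells of the culture together. In such bulk RNA, fewer cells of a type and less RNA per cell cannot be told apart.

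Hedgehog proteins are secreted signals that bind the receptor PTCH1 and thereby free SMO, which acts through the GLI transcription factors. In growing cartilage the ligand is IHH, made by chondrocytes on their way to hypertrophy, and it acts on neighbouring chondrocytes and on the perichondrium. HHIP binds hedgehog ligands at the cell surface and limits their action, and GAS1 is a membrane-anchored co-receptor that aids signalling. PTCH1, HHIP and GLI1 are themselves raised by hedgehog signalling in many tissues, so they are often used to read it.

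Library totals ranged from 14069766 to 16793118 reads. The PITX1 row reached 10233 RPKM (reads per kilobase of transcript, scaled to sequencing depth) where PITX1 was delivered and 24.8 to 64.5 elsewhere, and the HOXD13 row at 36.8 to 63.4 in the HOXD13 libraries against 13.1 and 16.6 in the other ones. Whether reads of the mouse Hoxd13 transgene reached this chicken row was not tested. All 10 cartilage markers found of 14 listed were detected in every library, with summed levels from 2608 RPKM in Q317K through 4617 in PITX1, 6069 in HOXD13 wt and 14668 in Q317R to 19607 in the empty vector. Summed perichondrium and fibroblast markers, 8 found of 14, lay between 2671 and 5091 RPKM. Markers of other cell types summed to 60.1 to 130 RPKM for skeletal muscle (7 of 12), 80.0 to 185 for endothelium (6 of 9), 45.9 to 63.5 for epithelium (4 of 9) and 22.7 to 33.2 for neurons (5 of 8). None of the markers found in the table was below 1 RPKM in any library. Every row of the table held at least 1 read in each library, however. A marker found there, the cartilage ones included, was thus detected everywhere by construction. The blood list, 3 found of 9, summed to 868 RPKM in PITX1 cultures and to 11.5 to 20.3 in the others. That PITX1 sum came almost wholly from the globins HBE (747 RPKM) and HBB (116), while the third gene, TAL1, was lowest in PITX1 at 4.35. A single gene can carry such sums: EGFL7 gave 128 of the 185 RPKM of the endothelial list in Q317K.

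The 3 genes had different patterns. IHH was highest in the empty vector, HHIP stood far above the rest in Q317K, and GAS1 stood above the rest in HOXD13 wt. On the scale used for calls, log2 of the ratio of RPKM + 1 with a difference counted from 2-fold, 5 of the 12 comparisons of a member with the empty vector were at least 2-fold apart, 2 higher and 3 lower. HOXD13 wt and PITX1 each accounted for 2 of these, Q317K for 1 and Q317R for 0. Genes entered a comparison when either library held 5 RPKM or more of them. Over all such genes, 4.9% were 2-fold apart in HOXD13 wt (2.28% higher and 2.62% lower), 5.01% in Q317K (2.14% and 2.87%), 3.97% in Q317R (1.89% and 2.08%) and 4.77% in PITX1 (1.97% and 2.8%). The members were chosen with such values known, so nothing is read from their count or from their ranks among all genes given below. All these comparisons share the empty vector library.

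**Figure D1:**
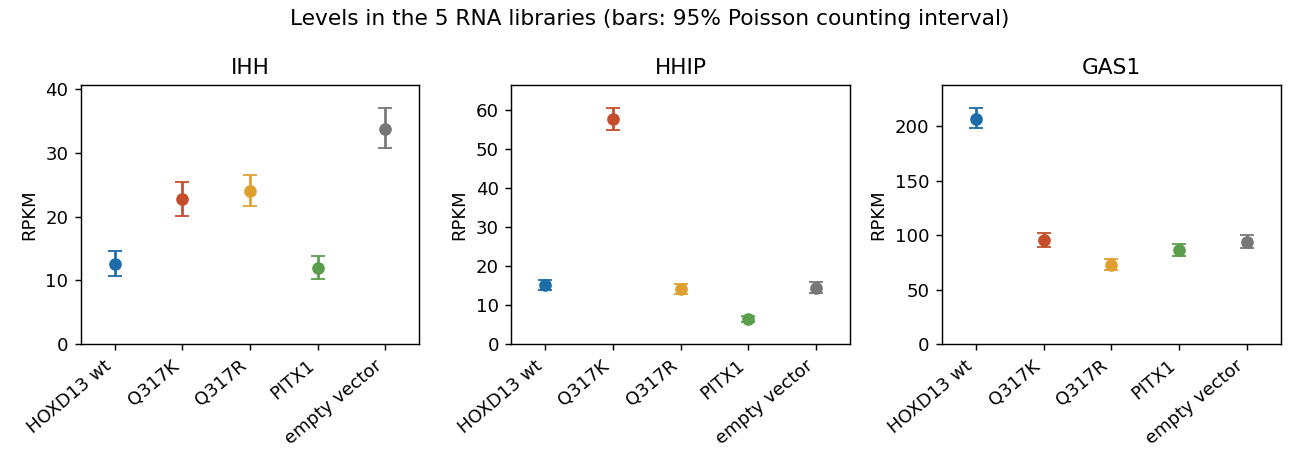
RPKM (vertical axis, from 0) of IHH, HHIP and GAS1 in the 5 RNA libraries; each point is 1 library and its bar the 95% Poisson interval of its reads. IHH is highest in the empty vector at 33.8 RPKM, HHIP in Q317K at 57.5 and GAS1 in HOXD13 wt at 207.

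IHH, the ligand, measured 33.8 RPKM in the empty vector, 24.0 in Q317R, 22.7 in Q317K, 12.5 in HOXD13 wt and 11.9 in PITX1. These values rested on 477, 372, 295, 173 and 177 reads in that order. All 4 factor libraries were thus below the empty vector, and they fell into a lower pair, PITX1 and HOXD13 wt, and a middle pair, Q317K and Q317R. IHH was 2.70-fold lower in HOXD13 wt than in the empty vector (95% exact counting interval 2.26 to 3.23) and 2.84-fold lower in PITX1 (2.39 to 3.40). In Q317K the ratio of RPKM was 0.671 (0.579 to 0.778) and in Q317R 0.709 (0.618 to 0.814), both short of 2-fold. Of 12840 genes compared in HOXD13 wt, 137 had a more negative log2 ratio than IHH, and of 12698 in PITX1, 123 did.

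Neighbours in the order of IHH levels were not separable by counting error within the pairs. The ratio of HOXD13 wt to PITX1 was 1.05 (0.850 to 1.31) and that of Q317K to Q317R 0.947 (0.810 to 1.11). Between the pairs, HOXD13 wt stood at 0.553 of Q317K (0.455 to 0.669), and Q317K at 1.91 times PITX1 (1.58 to 2.31). None of the 6 comparisons among factor libraries reached 2-fold for IHH on the log2 scale with the pseudocount. In these pairs 3.13% to 6.35% of all genes compared were at least 2-fold apart. Few calls would thus be due, and nothing is read from that count. The ratio of Q317R to PITX1 was 2.02 without the pseudocount (1.68 to 2.43). The other IHH transcript in the table gave the same order of libraries, with 31.1, 23.1, 19.3, 12.03 and 10.07 RPKM from the empty vector down to PITX1. Both transcripts had the same length and similar reads in each library. They may count largely the same reads, so the shared order is not a second measurement.

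The 10 cartilage markers had no single order of libraries to set beside that of IHH. The highest library was the empty vector for 8 of them, as for IHH, and Q317R for COL9A1 and COL9A3. The lowest was Q317K for 6, HOXD13 wt for 3 (MATN3, HAPLN1 and EPYC) and PITX1 for 1 (MATN1). Against the empty vector, 8 of the 10 were at least 2-fold lower in HOXD13 wt and 10 in Q317K. In Q317R 3 were lower and in PITX1 9, and 0 were higher. Of all genes compared, 2.62%, 2.87%, 2.08% and 2.8% were lower in that order of libraries. COL2A1, the main collagen of cartilage, measured 15370.3 RPKM in the empty vector, 11296 in Q317R, 4279 in HOXD13 wt, 3437 in PITX1 and 1983 in Q317K. In the link protein HAPLN1, by contrast, HOXD13 wt was lowest at 56.5 RPKM, with 63.9 in Q317K, 141 in PITX1, 338 in Q317R and 487 in the empty vector. The part of cartilage content in the IHH levels was not tested. COL10A1, the collagen of hypertrophic cartilage, also took another order, with 502 RPKM in HOXD13 wt, 67.7 in the empty vector, 40.3 in Q317R, 19.7 in PITX1 and 14.95 in Q317K.

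HHIP, the ligand-binding inhibitor, measured 57.5 RPKM in Q317K, 15.1 in HOXD13 wt, 14.5 in the empty vector, 14.1 in Q317R and 6.38 in PITX1, from 1693, 472, 462, 496 and 215 reads. Q317K was high, PITX1 was low and the other libraries lay close together. HHIP was 3.98-fold higher in Q317K than in the empty vector (3.59 to 4.42), and 35 of 12720 genes compared had a larger log2 ratio. In PITX1 it was 2.27-fold lower (1.92 to 2.68), an interval that reaches below 2-fold, and with a pseudocount of 5 RPKM in place of 1 the difference fell short of 2-fold, with a log2 ratio of −0.77. HOXD13 wt was at 1.05 times the empty vector (0.917 to 1.19) and Q317R at 0.977 times (0.859 to 1.11).

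Some markers of several cell types also stood apart from the empty vector in Q317K. All 10 cartilage markers were at least 2-fold lower there. So were 8 in HOXD13 wt, 9 in PITX1 and 3 in Q317R. Of all genes compared in Q317K, 2.87% were at least 2-fold lower and 2.14% higher. Of 8 perichondrium and fibroblast markers, 2 were at least 2-fold higher in Q317K, the collagen COL3A1 (784 against 121 RPKM) and the proteoglycan LUM (200.01 against 72.8), and 0 were lower. These rises were not all limited to Q317K. COL3A1 was also 2.21-fold higher in Q317R (268 RPKM), and LUM 2.51-fold higher in PITX1 (182 RPKM). In Q317R 2 of the 8 were lower, and in PITX1 1, DCN, which fell short after rescaling at −0.98. From the endothelial, neuronal and muscle lists 1 gene each was higher in Q317K. These were EGFL7 (128 against 30.9 RPKM), STMN2 (12.4 against 3.33) and ACTC1 (73.5 against 35.8). Over the 3, 4 and 6 genes compared, the median log2 ratios of these lists were −0.38, −0.04 and −0.13, against −0.01 over all genes. Summed levels of these lists were higher in Q317K than in the empty vector. They were 185 against 104 RPKM for endothelium, 33.2 against 26.3 for neurons and 130 against 92.4 for muscle. Medians and sums thus went different ways. For the 8 perichondrium and fibroblast markers the median log2 ratio was 0.43. Q317K was the highest library for 4 of these 8, COL3A1, DCN, LUM and MKX, and the lowest for 0. With a pseudocount of 5 RPKM the ACTC1 call did not hold, at 0.95. For 4 of the 6 endothelial markers, TEK, TIE1, VWF and ERG, the lowest library was Q317K. Of the 7 muscle markers, Q317K was the highest library for MYOD1, TNNC2 and ACTC1 and the lowest for MYF5. The part of these cell types in the HHIP level was not tested.

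The mutants thus differed from each other in HHIP more than in the other members. HHIP was 4.07-fold higher in Q317K than in Q317R (3.68 to 4.51), with 42 of 12536 genes showing a larger log2 ratio, and 3.81-fold higher in Q317K than in HOXD13 wt (3.44 to 4.22). HOXD13 wt and Q317R were at a ratio of 1.07 (0.942 to 1.22). The widest gap was between Q317K and PITX1, 9.02-fold (7.82 to 10.4), and 7 of 12242 genes compared had a larger ratio. Of the 6 pairs of factor libraries, 5 were at least 2-fold apart for HHIP. Background shares of genes at least 2-fold apart were 3.58% for Q317K with PITX1, 5.09% for Q317K with Q317R, 6.28% for HOXD13 wt with Q317K, 6.35% for HOXD13 wt with PITX1 and 5.84% for Q317R with PITX1. In the last of these pairs the HHIP call did not hold after rescaling by the median ratio, where the log2 value was 0.96, or with a pseudocount of 5 RPKM, where it was 0.75. For HOXD13 wt with PITX1 it did not hold with that pseudocount, at 0.82.

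GAS1, the co-receptor, had the highest levels of the 3, with 207 RPKM for HOXD13 wt, 95.5 in Q317K, 94.0 in the empty vector, 86.2 in PITX1 and 72.6 in Q317R, from 2022, 879, 939, 908 and 797 reads. HOXD13 wt was high, and the other libraries spanned 72.6 to 95.5 RPKM. GAS1 was 2.20-fold higher in HOXD13 wt than in the empty vector (2.04 to 2.38), and 218 of 12840 genes had a larger log2 ratio. Q317K stood at 1.02 times the empty vector (0.926 to 1.12), PITX1 at 0.917 times (0.836 to 1.01) and Q317R at 0.772 times (0.702 to 0.849). Against the mutants, GAS1 in HOXD13 wt was 2.17-fold higher than in Q317K (2.00 to 2.35) and 2.85-fold higher than in Q317R (2.63 to 3.10); in the latter pair 3.13% of all genes were at least 2-fold apart. It was 2.40-fold higher than in PITX1 (2.22 to 2.60). Of the 8 perichondrium and fibroblast markers, HOXD13 wt was the highest library for 1, the collagen COL1A2 (4433 RPKM against 2044 in the empty vector), and the lowest for COL3A1 and MKX. In that library 1 of the 8 was at least 2-fold higher than in the empty vector, COL1A2, and 1 lower, THBS2 (28.9 against 81.0 RPKM). Of all genes compared in HOXD13 wt, 2.28% were higher and 2.62% lower. Of 4 endothelial markers compared, 1 was at least 2-fold higher there, ERG (121 against 54.3 RPKM). The others did not move together, with log2 ratios of 0.71 for PECAM1, −0.01 for EGFL7 and −0.33 for TIE1. The part of any of these cell types in the GAS1 level was not tested.

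**Figure D2:**
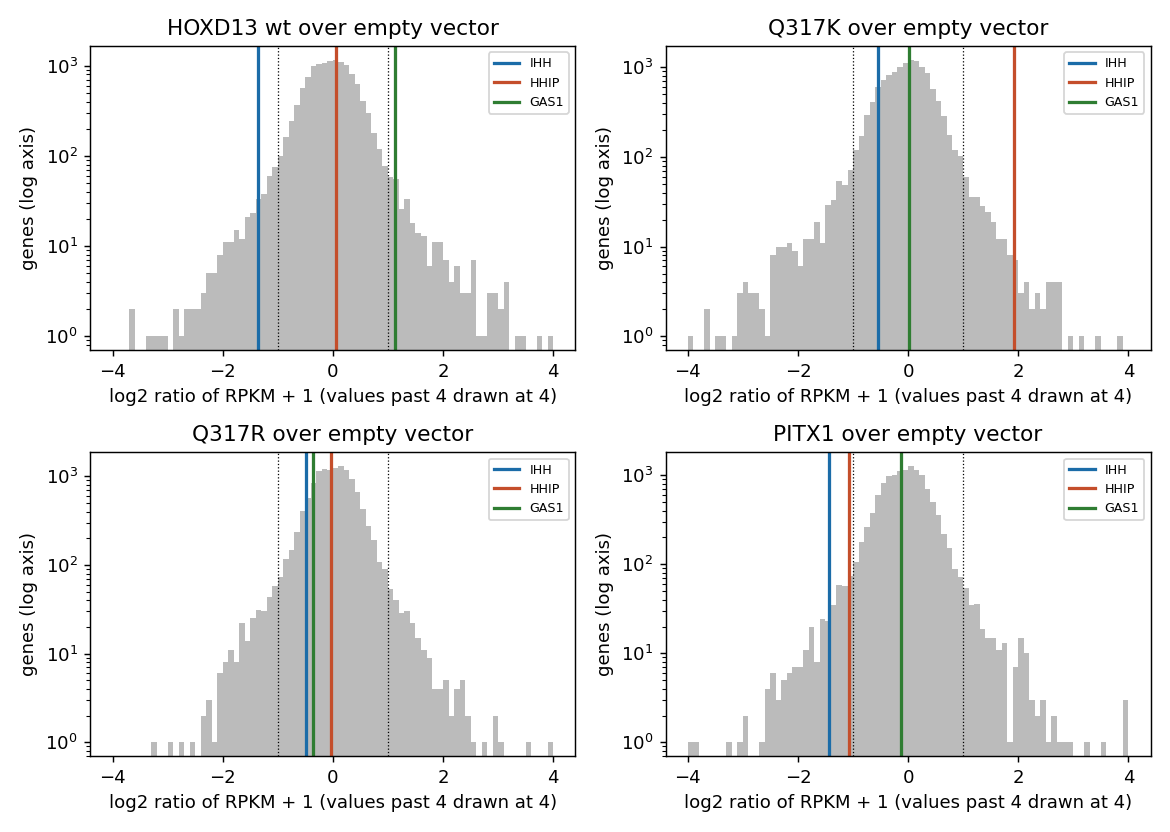
Histograms of the log2 ratio of RPKM + 1 of each factor library over the empty vector (horizontal axis) for all genes compared (number of genes on a log axis), with the members as coloured lines and dotted lines at 2-fold. IHH lies left of the lower line in HOXD13 wt and PITX1, HHIP right of the upper line in Q317K and just left of the lower line in PITX1, GAS1 right of the upper line in HOXD13 wt, and no member lies outside the lines in Q317R.

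Over the 5 libraries, HHIP spanned 9.02-fold, GAS1 2.85-fold and IHH 2.84-fold from lowest to highest. On the log2 scale of RPKM + 1 these ranges were 2.99, 1.50 and 1.43, against a median range of 0.54 over the 13201 genes that reached 5 RPKM in some library. A smaller range was found for 99.3% of these genes than for HHIP, for 93.3% than for GAS1 and for 92.6% than for IHH. As the members were chosen with such values known, nothing is read from these shares.

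The balance of binding proteins and ligand was compared within each library, per transcript length. HHIP stood at 2.54 times IHH in Q317K (2.24 to 2.88), 1.21 times in HOXD13 wt (1.01 to 1.44), 0.589 in Q317R (0.514 to 0.676), 0.537 in PITX1 (0.438 to 0.659) and 0.428 in the empty vector (0.376 to 0.487). On the transcripts used, HHIP RNA exceeded IHH RNA in HOXD13 wt and Q317K and was below it in the other libraries. In HOXD13 wt the lower bound of the interval, 1.01, lay close to equality. Transcript lengths, as recovered from the RPKM values, were 2091 bases for HHIP, 924 for IHH and 654 for GAS1. Ratios between genes depend on these lengths, and the counting intervals do not cover an incomplete transcript. How reads shared by the pair of IHH transcripts were counted is not stated. If they were divided between these transcripts, the ratios to IHH given here are too high. GAS1 was above IHH in every library, at 16.5 times its level in HOXD13 wt (14.1 to 19.4), 7.25 in PITX1 (6.16 to 8.56), 4.21 in Q317K (3.69 to 4.82), 3.03 in Q317R (2.67 to 3.43) and 2.78 in the empty vector (2.49 to 3.11). Levels of RNA do not give the amounts of protein.

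**Figure D3:**
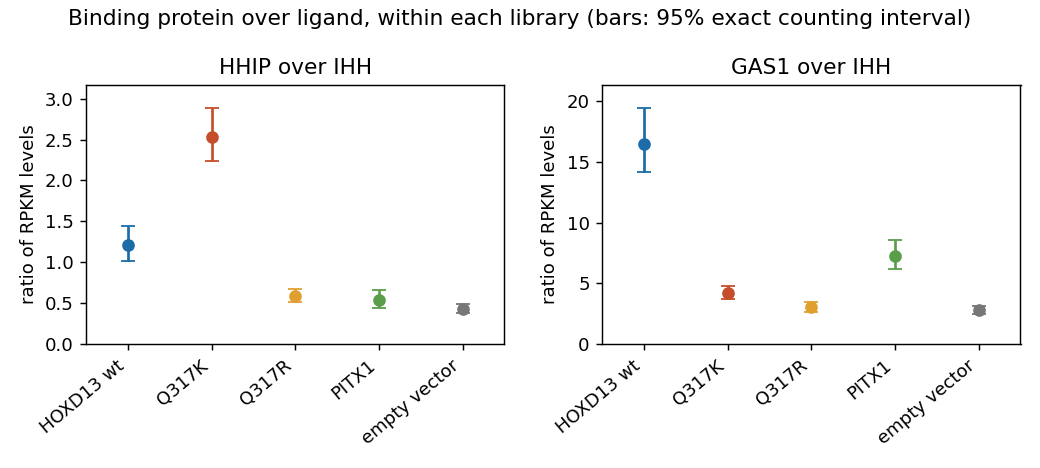
Ratio of RPKM levels (vertical axis, from 0) of HHIP over IHH and of GAS1 over IHH within each of the 5 RNA libraries; bars are 95% exact counting intervals. HHIP over IHH is highest in Q317K at 2.54, and GAS1 over IHH in HOXD13 wt at 16.5.

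Other hedgehog genes were read from 4 lists of ligand release, receptors and binders, transducers, and targets, which name 49 genes, members included. Besides the members, 35 were in the table under a usable name and 33 could be compared in each case. Of these 33, 2 were at least 2-fold higher and 2 lower in HOXD13 wt, and 0 and 3 in Q317K. In Q317R the counts were 4 and 3, and in PITX1 2 and 2. Over all genes compared, 4.9%, 5.01%, 3.97% and 4.77% were 2-fold apart in that order of libraries. The median log2 ratios of the 33 were 0.08, −0.04, −0.10 and −0.29, against −0.03, −0.01, 0.02 and −0.05 over all genes compared. The lists were chosen with earlier results of these data known, so nothing is read from these counts or medians.

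Among the receptors, PTCH1, the receptor that holds SMO in check, was lowest in PITX1 at 14.85 RPKM and highest in the empty vector at 25.8, with 17.2 in HOXD13 wt, 16.1 in Q317K and 20.6 in Q317R, and in none of these comparisons was it 2-fold apart. SMO, the signal transducer at the membrane, ranged from 80.1 to 109 RPKM. GPC1, a glypican of the cell surface, was 2.49-fold lower in PITX1 (2.29 to 2.70), and BOC, a co-receptor like GAS1, was 2.15-fold lower in Q317K (2.09 to 2.21), with 119 against 256 RPKM.

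GLI1, the transcription factor most often used to read hedgehog signalling, measured 35.6 RPKM in the empty vector, 25.9 in Q317K, 22.3 in Q317R, 21.8 in HOXD13 wt and 15.5 in PITX1. Like IHH and PTCH1 it was highest in the empty vector and lowest in PITX1, where it was 2.30-fold lower (2.04 to 2.59). HHIP, a target in the same list, was also lowest in PITX1, but its highest library was Q317K. In Q317K PTCH1 stood at 0.624 of the empty vector (0.574 to 0.678) and GLI1 at 0.726 (0.653 to 0.807). GLI3, which mainly acts as a repressor, ranged from 27.5 to 33.4 RPKM. Over all genes compared, 4.9% were 2-fold apart in HOXD13 wt, 5.01% in Q317K, 3.97% in Q317R and 4.77% in PITX1. Of 9 transducers compared, 1 was called in Q317R, the protein kinase A subunit PRKACB (49.9 against 23.8 RPKM), 1 in PITX1, GLI1, and 0 in the other comparisons. Neither call held with a pseudocount of 5 RPKM, where the log2 ratio was 0.93 for PRKACB and −0.99 for GLI1, and rescaling by the median ratio also took PRKACB to 0.99.

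The 15 target genes compared included higher and lower ones in every comparison. At least 2-fold higher and lower were 2 and 1 of them in HOXD13 wt and 1 and 1 in Q317K. In Q317R these counts were 1 and 2, and in PITX1 2 and 2, HHIP and GLI1 included. Of all genes compared, 4.9%, 5.01%, 3.97% and 4.77% were 2-fold apart in that order of libraries. The growth factor BMP4 measured 14.1 RPKM in the empty vector, 22.6 in Q317K, 42.3 in PITX1, 60.8 in HOXD13 wt and 76.2 in Q317R. It was 4.33-fold higher than the empty vector in HOXD13 wt (3.79 to 4.95), 5.42-fold in Q317R (4.76 to 6.19) and 3.01-fold in PITX1 (2.62 to 3.46). SPP1, the bone matrix protein osteopontin, was 6.10-fold lower in Q317R (5.80 to 6.42), at 93.9 against 573 RPKM, and 2.17-fold lower in Q317K (2.09 to 2.25). The transcription factor SNAI2 was 2.47-fold lower in Q317R (2.22 to 2.76) and 2.11-fold higher in PITX1 (1.97 to 2.27). In HOXD13 wt, BMP2 was 2.15-fold lower (1.799 to 2.57) and the transcription factor OSR2 2.06-fold higher (1.79 to 2.38). Neither reached 2-fold with a pseudocount of 5 RPKM, at −0.87 and 0.90 on the log2 scale.

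Among the genes of ligand release, SCUBE2, which helps to free hedgehog from the cell surface, measured 28.1 RPKM in the empty vector, 16.9 in PITX1, 9.55 in Q317R, 7.93 in HOXD13 wt and 6.59 in Q317K. It was at least 2-fold lower in the 3 HOXD13 libraries, by 3.54-fold in HOXD13 wt (3.14 to 4.002), 4.26-fold in Q317K (3.74 to 4.88) and 2.94-fold in Q317R (2.64 to 3.28). Its relatives SCUBE1 and SCUBE3 were at least 2-fold higher in Q317R, at 19.7 against 7.04 and 38.1 against 14.7 RPKM. The other ligand in the table, SHH, ranged from 6.24 RPKM in HOXD13 wt to 12.4 in Q317K, and its longest transcript was just past 2-fold higher in Q317K than in the empty vector, with a log2 ratio of 1.01.

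**Figure D4:**
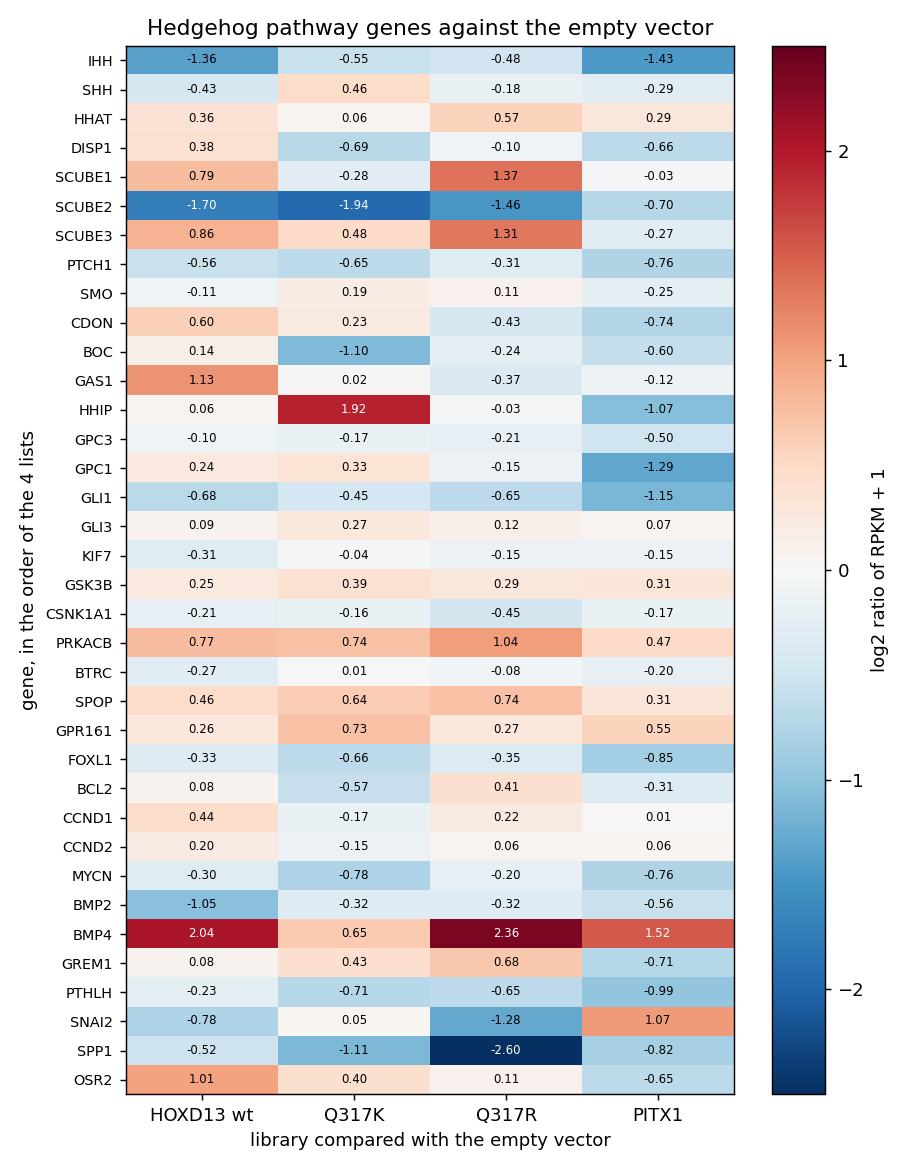
Log2 ratio of RPKM + 1 against the empty vector (colour and printed value) for each gene of the 4 hedgehog lists that reached 5 RPKM in some library (rows) in each factor library (columns). GLI1 is below 0 in all 4 columns, down to −1.15 in PITX1, while HHIP is the one receptor or binder at least 2-fold higher in Q317K, with 1.92.

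In the growth plate circuit, in which IHH and the parathyroid hormone-related peptide PTHLH set the pace of chondrocyte maturation, 14 of 23 listed genes were compared, IHH included. At least 2-fold higher and lower were 2 and 3 genes in HOXD13 wt, 0 and 4 in Q317K, 1 and 2 in Q317R, and 0 and 6 in PITX1. Of all genes compared, 4.9%, 5.01%, 3.97% and 4.77% were 2-fold apart in that order of libraries. The list medians were −0.26, −0.44, −0.40 and −0.97 on the log2 scale, against −0.03, −0.01, 0.02 and −0.05 over all genes compared. This list was chosen with earlier results of these data known, so nothing is read from its counts or medians. FGFR3, a receptor that restrains chondrocyte growth, was lower in all 4 factor libraries. It measured 73.8, 36.5, 76.5 and 35.4 RPKM in the same order, against 194 in the empty vector. BMP6, a growth factor of maturing cartilage, was higher in HOXD13 wt (125 against 13.7 RPKM) and in Q317R (51.9). The cartilage transcription factors SOX9 and SOX6 were at least 2-fold lower in Q317K and PITX1, by 2.63- and 2.54-fold for SOX9 and by 2.53- and 2.56-fold for SOX6. DLX5, a homeodomain factor of maturing cartilage, was 2.16-fold lower in Q317R and 2.09-fold lower in PITX1. With a pseudocount of 5 RPKM neither DLX5 call held (−0.89 and −0.85), nor that of SOX6 in Q317K (−0.99); rescaling also took DLX5 in PITX1 to −0.98. PTHLH itself lay between 2.80 and 6.53 RPKM, with its lowest level in PITX1 and its highest in the empty vector. Genes of the primary cilium, the organelle in which vertebrate cells process hedgehog signals, were 13 of 24 in the comparisons. Of these, 0 were 2-fold apart in any of the 4. With the shares of all genes given above, few calls would be due among 13 genes, so nothing is read from that count.

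Genes with the pattern most like each member were searched among 6022 named genes with a mean RPKM of at least 5, by the root mean square distance between log2 profiles over the 5 libraries, each centred on its own mean. For IHH, whose own spread by that measure was 0.55, the nearest were PEF1 at a distance of 0.14, UAP1 at 0.15, MYOC at 0.17, PDPN at 0.18 and SERPINB2 at 0.19. HHIP, with a spread of 0.97, was nearest to the leucine-rich proteoglycan ASPN at 0.25, then to BPIFB4 at 0.30, SMPD3 at 0.32, EGFL7 at 0.34 and GAS6 at 0.37. ASPN stood at 123 RPKM in Q317K and at 23.2 to 50.2 in the other libraries. GAS1, with a spread of 0.52, was nearest to the annexin ANXA7 at 0.09, followed by AGXT2L2 and LYPD1 at 0.18 and SAP30L and HLF at 0.20. ANXA7 stood at 62.0 RPKM in HOXD13 wt and at 25.0 to 30.7 elsewhere. With 5 libraries such likeness is a description of single values.

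**Figure D5:**
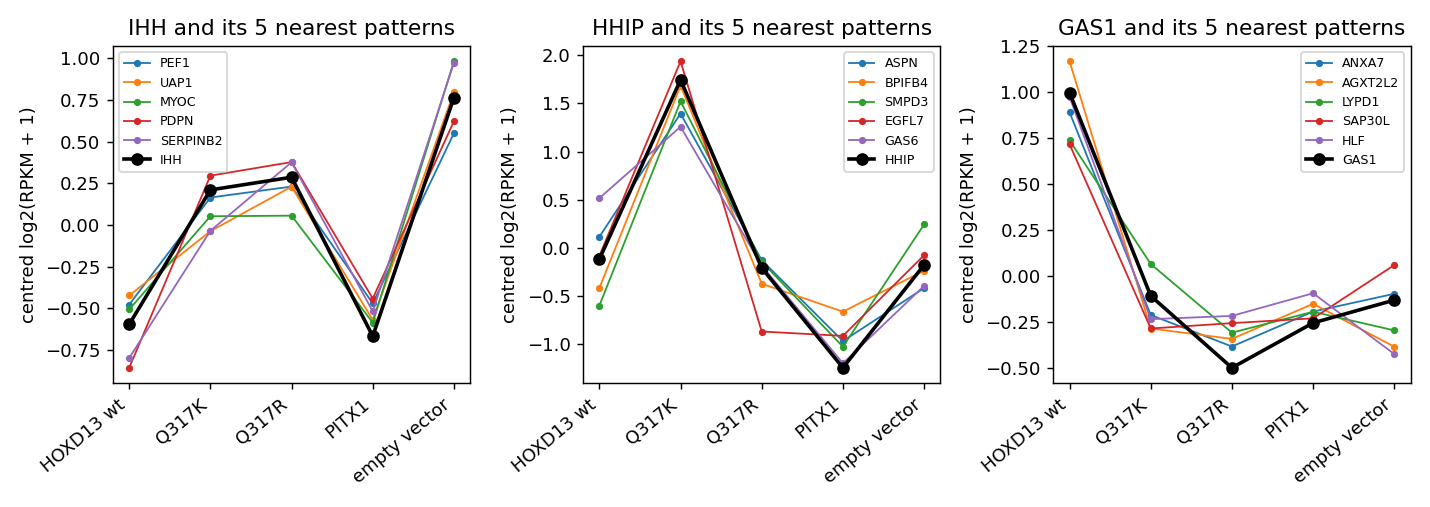
Centred log2 of RPKM + 1 (vertical axis) in the 5 RNA libraries for IHH, HHIP and GAS1 (black) and the 5 genes nearest to each (coloured); lines only join the points of a gene. PEF1 runs beside IHH, ASPN shares the Q317K peak of HHIP, and ANXA7 the HOXD13 wt peak of GAS1.

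Genes that lie next to the members in the RefSeq annotation of GRCg7b, used here for names and order only, were looked up for comparison. Of 12 neighbours, 2 on each side of each member, 5 had a row under their symbol. None of their 20 log2 ratios against the empty vector reached 2-fold. They ran from −0.78 for SLC23A3 beside IHH in HOXD13 wt to 0.91 for DAPK1 beside GAS1 in PITX1. For ZCCHC6, beside GAS1, neither library of the comparison reached 5 RPKM in Q317K, Q317R and PITX1. Over all genes compared, 4.9% were 2-fold apart in HOXD13 wt, 5.01% in Q317K, 3.97% in Q317R and 4.77% in PITX1. At such shares few calls would be due among 20 ratios, so nothing is read from that count. NHEJ1, next to IHH, ranged from 13.3 to 18.5 RPKM, and OTUD4, near HHIP, from 10.3 to 14.4.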

How the data were processed

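RNA was selected for polyA and read as 115 bp single reads, per the labels' protocols. The authors deposited RPKM for 21998 transcripts, per the file headers; the aligner, counter and annotation they used are not stated in the sources. Columns were matched to samples by name, the German "leer" being the empty vector. Each gene was represented by its transcript of highest mean RPKM. Whole reads, transcript lengths and library totals were recovered from the common steps of the columns, and 100% of rows came out whole within 0.001 reads. If a row's reads are too small by a common factor, its intervals are too wide and its RPKM is unaffected. Intervals (95%; exact binomial for ratios, Poisson for levels) cover counting error only, as reads are not independent molecules.

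Genes reaching 5 RPKM in either library of a pair were compared on a log2 (RPKM + 1) scale, which understates differences of low genes; folds in the text are of RPKM itself. UniProt chicken entries of list genes were translated by hand. Named were the members, list genes at least 2-fold apart from the empty vector, up to 6 others per list, and the 5 nearest patterns; marker genes and the neighbouring genes were named after their values were seen. The members and lists were chosen with earlier results of these data known. A gene left out of the lists and of the search for like patterns is not reported here. Steps were tested on simulated data. The 4 peak lists of the chromatin immunoprecipitations were not used here, since their build is not given, and a planned search of promoters for motifs was not run. Tools were Python 3.11.15 with numpy 2.4.6, scipy 1.17.1 and pandas 2.3.3.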

Additional observations from a re-analysis of the deposited data

How the results depend on the processing

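The 12 member ratios against the empty vector were recomputed under 6 alternatives: pseudocounts of 0.1 and 5 RPKM, a filter at 1 RPKM, no filter, rescaling by the median ratio, and the longest transcript. Each value was set beside the reported log2 (RPKM + 1) ratio, with the width of the 95% counting interval of the RPKM ratio laid around it. Of the 72 values, 70 stayed within that band and none changed sign while called. Much of this was fixed in advance: the filter settings do not enter a member's ratio, and each member's longest transcript was the row already used. Those alternatives could move no member value here or for the other pairs of libraries. A pseudocount added to both libraries cannot change the sign of a ratio. Rescaling was thus the one alternative that could, and its factors lay between 0.969 and 1.03. With a pseudocount of 5 RPKM, HHIP moved to 1.68 in Q317K and to −0.77 in PITX1, and genes at least 2-fold apart fell to 418 in HOXD13 wt, 392 in Q317K, 322 in Q317R and 383 in PITX1 from 629, 637, 510 and 606; a larger pseudocount shrinks ratios of low genes by its construction. Of 108 values for other pairs of libraries, 5 moved, all for HHIP with that pseudocount. With a pseudocount of 0.1 RPKM, IHH in Q317R over PITX1 passed 2-fold at 1.01. Of 312 list counts, 301 stayed within 1.5 times. No paired analysis was possible because each group had 1 library, so no library could be left out either.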
